A study of Mus musculus with 2 samples.

Results

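Chromatin accessibility was examined at 39 forkhead transcription factor genes in mouse kidney, out of 20807 protein-coding genes on chromosomes 1 to 19. The members were the protein-coding genes of GENCODE release M21 (mm10) on those chromosomes whose symbol is Fox followed by a letter from a to s and a number, as in Foxa1. A further 2 genes with such symbols were set aside by the choice of members, and genes on the sex chromosomes are not described. DNase-seq, which sequences the ends left where the enzyme DNase I cut accessible DNA in nuclei, was run on kidney tissue of female B6CASTF1/J mice, an F1 hybrid strain, at 36 days of age. There were 2 libraries, replicate 1 and replicate 2, and no treatment, second tissue or control. Both carry 1 donor entry in the labels although each names its own female, so the separateness of the animals rests on their replicate numbers. With 1 group no test between conditions could be made, and each value is given for replicate 1 and then for replicate 2.

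Forkhead proteins bind DNA through a winged-helix domain, most of them at sequences close to TGTTTAC. Some, such as the FOXA proteins, can bind DNA within nucleosomes, and others, such as the FOXO proteins, are moved in and out of the nucleus by insulin and growth factor signalling. In the kidney, Foxd1 marks the progenitors of the stroma and Foxc1 acts in the developing kidney, while Foxo1 and Foxo3 take part in the responses of many adult cells to nutrients and oxidative stress.

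The stricter of the authors' peak sets held 124504 peaks in replicate 1 and 68056 in replicate 2, with median widths of 180 and 198 bp. Read totals were not given in the sources used here. A promoter peak is a peak that reached into the window of 1 kb upstream to 1 kb downstream of any annotated start of a gene's transcripts. Peak height is the authors' own signal on a scale that is not stated, and its percentile is the share of that library's peaks that are as high or lower. Of 12 kidney marker genes, 10 had a promoter peak in both libraries, among them Lrp2, Umod and Pax8, and the other 2 had one in replicate 1 alone. All 4 endothelial and all 3 stromal and mural markers had one in both, while none of 6 markers of other organs and none of 3 leukocyte markers had one in either library. In whole tissue, fewer cells of a type and less signal per cell cannot be told apart.

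The DNA of 5 accessible regions is shown first because these carried the 2 tallest promoter peaks of the members, their tallest peak within an intron, and the promoter peaks of Foxj1, a gene of motile cilia, and of Foxc1, the tallest of the mesenchymal members. Letters are from the mm10 reference, so a base that differs in 1 of the parental genomes of the hybrid is not shown. Capitals mark footprints, short stretches protected from DNase I, that were found in both libraries with an overlap of at least 50% of the shorter, and sequence within exons is left out.
Foxn3, chr12:99392041-99392220, plus strand: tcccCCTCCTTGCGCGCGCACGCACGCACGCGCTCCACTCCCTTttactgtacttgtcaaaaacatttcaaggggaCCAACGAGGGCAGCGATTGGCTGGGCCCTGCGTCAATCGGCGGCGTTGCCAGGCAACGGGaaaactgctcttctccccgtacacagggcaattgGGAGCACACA
Foxo3, chr10:42277641-42277900, plus strand: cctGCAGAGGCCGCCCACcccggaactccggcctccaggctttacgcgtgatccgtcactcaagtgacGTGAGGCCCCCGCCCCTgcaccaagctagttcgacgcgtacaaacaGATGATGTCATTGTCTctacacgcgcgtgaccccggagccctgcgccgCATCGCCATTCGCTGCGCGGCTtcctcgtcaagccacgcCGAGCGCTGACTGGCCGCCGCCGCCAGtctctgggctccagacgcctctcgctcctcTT
Foxk1, chr5:142440541-142440800, plus strand: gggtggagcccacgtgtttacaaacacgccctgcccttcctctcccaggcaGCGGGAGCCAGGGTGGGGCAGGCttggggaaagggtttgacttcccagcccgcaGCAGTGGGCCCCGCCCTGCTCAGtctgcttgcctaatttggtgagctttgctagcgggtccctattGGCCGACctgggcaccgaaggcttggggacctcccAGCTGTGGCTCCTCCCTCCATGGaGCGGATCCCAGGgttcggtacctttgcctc
Foxj1, chr11:116335400-116335540, plus strand: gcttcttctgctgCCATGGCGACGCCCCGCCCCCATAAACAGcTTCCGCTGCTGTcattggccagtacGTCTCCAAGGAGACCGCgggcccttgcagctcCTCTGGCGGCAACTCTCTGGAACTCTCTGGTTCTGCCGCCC
Foxc1, chr13:31806481-31806632, plus strand: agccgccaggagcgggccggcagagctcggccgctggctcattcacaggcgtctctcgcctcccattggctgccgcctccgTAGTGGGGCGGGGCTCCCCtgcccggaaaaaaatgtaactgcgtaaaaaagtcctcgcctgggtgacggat
The Foxn3 stretch holds 3 matched footprints and the Foxo3 stretch holds 6. The Foxc1 stretch, which ends at the last base before the gene, holds 1, and its capitals contain the GC box GGGGCGGGG. The values of these regions are given with each gene.

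A promoter peak was present in both libraries at 19 of 39 forkhead genes (48.7%), against 62.2% of all genes. They comprised all 11 members known from many tissues and 8 of the 28 known mainly from particular tissues or stages. Roles were assigned by hand, to genes chosen with earlier results of these data known, so this split is a description only. In replicate 1 alone a peak was found at 4 members, Foxa1, Foxd1, Foxl2 and Foxp2, and 6.22% of all genes were in this class. In replicate 2 alone there was none, against 0.173% of all genes. The other 16 members had no promoter peak in either library, against 31.5% of all genes. Taken library by library, 23 members had a promoter peak in replicate 1 (all genes, 68.4%) and 19 in replicate 2 (all genes, 62.3%). Where there was a peak in both, the median height over the members was 6.09 in replicate 1 and 4.1 in replicate 2, and over all genes it was 8.41 and 5.46.

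**Figure D1:**
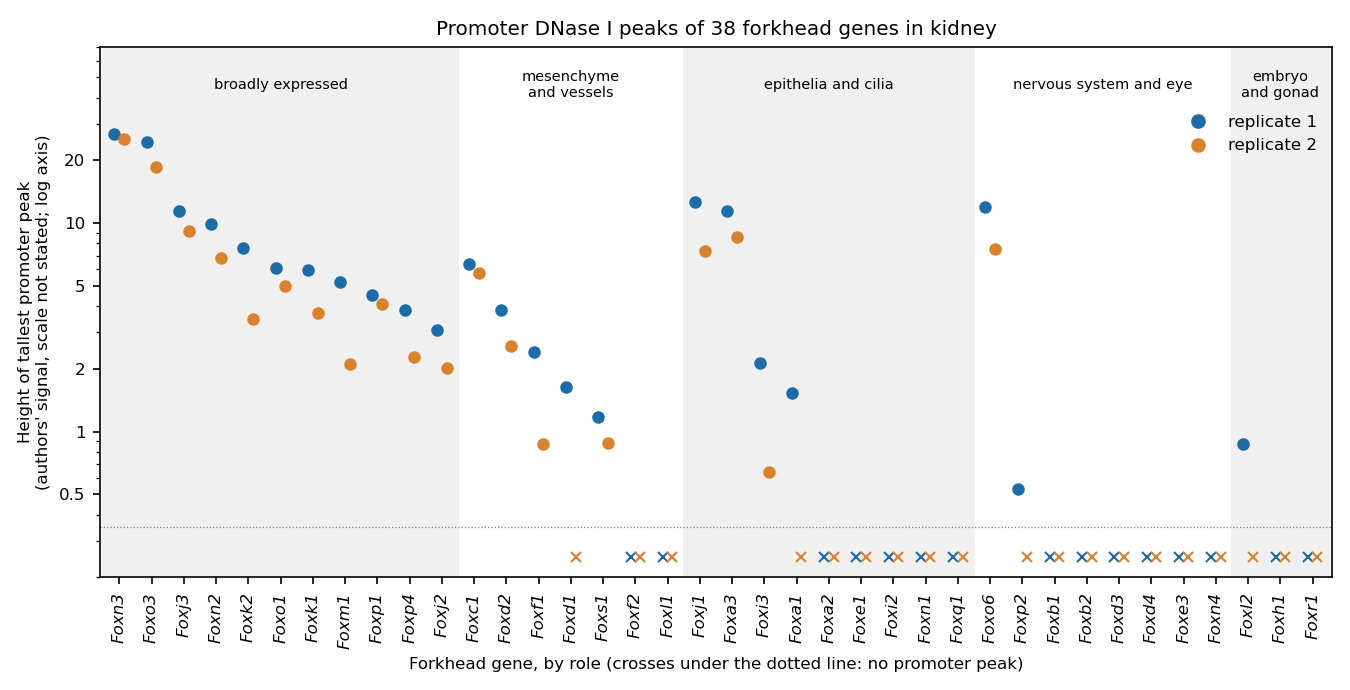
Height of the tallest promoter peak (authors' signal, scale not stated, log axis) of 38 of the 39 forkhead genes in replicate 1 and replicate 2. Genes are grouped by roles assigned by hand, and crosses stand for no promoter peak. All 11 broadly expressed genes have a point in both libraries, while 6 of the 8 genes drawn for the nervous system and eye have crosses in both.

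All 11 members that are known from many tissues had a promoter peak in both libraries. Their heights ran from 3.07 to 26.7 in replicate 1 and from 2.03 to 25.4 in replicate 2. Foxn3, which encodes a repressor first known as a checkpoint suppressor, had the tallest promoter peak of all members, with heights of 26.7 and 25.4 at the 99.7th and 99.6th percentiles. That region, shown above, lay 171452 bp downstream of the gene's 5′ end, with its middle 942 bp from the nearest annotated Foxn3 start, an internal one. Foxo3, a FOXO factor of stress resistance, followed with 24.4 and 18.6. Its tallest peak had its middle 1015 bp upstream of the 5′ end, and a second peak at the start itself had heights of 7.62 and 5.39. Both Foxn3 and Foxo3 therefore had their tallest peak near the edge of the 1 kb window and a lower one closer to a start.

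Among the other widely expressed members, Foxo1, a FOXO factor that drives gluconeogenic genes in liver, had heights of 6.09 and 5.02. Foxk1, a regulator of autophagy and glycolysis genes, had 5.97 and 3.72, and its paralog Foxk2 had 7.61 and 3.48. Foxn2 had 9.89 and 6.79. In these 4 genes the middle of the region was 111 bp or less from the gene's own 5′ end. Foxj3, a factor of muscle and germ cells in mice, had 11.4 and 9.18, but the start nearest to its peak was that of Frg2f1, at 49 bp. Foxm1, which drives the genes of mitosis, had 5.23 and 2.11, and the middle of its peak was 8 bp in replicate 1 and 32 bp in replicate 2 from the start of Rhno1. Foxj2, Foxp1 and Foxp4 had heights between 3.07 and 4.52 in replicate 1 and between 2.03 and 4.1 in replicate 2.

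Several of these genes have many annotated starts, and some of those had a peak in both libraries while others had none. At Foxp1, a repressor of blood, heart and lung development, 22 starts fell into 11 separate windows, of which 3 had a peak in both libraries. Foxn3 had a peak in both in 2 of 7 windows, Foxj3 in 2 of 3, and Foxp4, Foxm1 and Foxk2 each in 1 of 3. Both windows of Foxj2 had one, and 1 of 2 at Foxo3. Members with 1 annotated start had a promoter peak in both libraries at 8 of 21, beside 31.5% of all such genes, and members with more than 1 at 11 of 18, beside 70.4%.

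Of 7 members known from mesenchyme and vessels, 4 had a promoter peak in both libraries. Foxc1, which acts in vessels, eye and the developing kidney, had heights of 6.37 and 5.77, and its peak is the last of those shown above. Foxd2, a factor of embryonic mesenchyme, had 3.85 and 2.57. Foxf1, needed for the vessels of the lung, had 2.41 and 0.876, and Foxs1, found in pericytes, had 1.18 and 0.886. Foxf1 was at the 71.5th percentile in replicate 1 and the 23.5th in replicate 2, and Foxs1 at the 45.2nd and the 24.2nd. Foxd1 had a peak of height 1.64 at its start in replicate 1 alone. In replicate 2 its window was still listed over 201 bp in the authors' file of cut-rate false discovery rates below 0.05, with a lowest rate of 0.000703, so a signal was present there without a peak of the stricter set. Foxf2 and Foxl1, factors of the gut mesenchyme, had no promoter peak.

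Of 9 members known from epithelia and cilia, 3 had a promoter peak in both libraries. Foxj1, the main activator of motile cilium genes, had heights of 12.6 and 7.34 at the 96.7th and 92.0th percentiles, with the middle of the peak 61 bp upstream of its start. Foxa3, a factor of liver and gut, had 11.5 and 8.63, but the start of Sympk lay 87 bp from the peak's middle in replicate 1 and 97 bp in replicate 2, while the start of Foxa3 was 742 bp away from the shared region. Foxi3, a factor of skin appendages and the inner ear, had 2.13 and 0.642. The related Foxa1 had 1 peak of height 1.54 at the edge of its window in replicate 1 alone, and Foxa2, Foxe1 of the thyroid, Foxi2, Foxn1 of the thymus and Foxq1 had none. By the 1 kb window the FOXA genes fell into each of the 3 classes: Foxa3 in both, Foxa1 in replicate 1 and Foxa2 in neither. The place of Foxa3 rests on the peak near Sympk. The only peak nearest to the start of Foxa3 itself, at 84 bp with a height of 1.2, was in replicate 1 alone.

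Of 9 members known from the nervous system and eye, only Foxo6 had a promoter peak in both libraries. Foxo6, a FOXO factor described mostly in brain, had heights of 12 and 7.55 at the 96.4th and 92.3rd percentiles, with the middle of the peak 621 bp upstream of its start. Foxp2, known for its part in vocal learning, had a single low peak of height 0.529 in replicate 1 and none in replicate 2, and none of its 6 separate windows from 16 starts had a peak in both. Foxb1, Foxb2, Foxd3 of the neural crest, Foxd4, Foxe3 of the lens and Foxn4 of the retina were among those with no promoter peak. Of the 3 members known from embryo and gonad, Foxl2, a factor of ovarian granulosa cells, had a peak of height 0.872 in replicate 1 alone, nearest to the start of the antisense gene Foxl2os at 714 bp. Foxh1, a partner of SMAD proteins in the early embryo, and Foxr1 had none.

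The authors' false discovery rate files list positions below 0.05 whether or not they lie in a peak. Of the windows of the 16 members without a promoter peak, 11 had no listed position in either library. The same count was not made over all genes without a promoter peak, so nothing particular to the members is read from it. Foxa2, Foxd4, Foxe1 and Foxe3 had between 82 and 184 bp listed in replicate 1, with lowest rates from 0.00328 to 0.0156, and Foxd3 had 10 bp in replicate 2 with a lowest rate of 0.0333. Over the 19 members with a peak in both libraries, the listed length had a median of 1009 bp in replicate 1 and 664 bp in replicate 2. Over the 4 members with a peak in replicate 1 alone it was 302 and 97.5 bp. The peaks and these rates were made from the same alignment of each library, so the rates are not independent of the peaks. With the authors' wider peak set, Foxa1, Foxd1 and Foxl2 also had a peak in both libraries, which made 22 members against 66.4% of all genes. Counted only for the gene with the nearest start, Foxa3 and Foxm1 dropped out, which left 17 against 56.7%.

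Promoters of middling CpG content had fewer peaks among the members than among all genes. CpG content, as the observed count over that expected from C and G in a window of 1001 bp at the gene's 5′ end, had a median of 0.77 over the members and of 0.568 over all genes. In the highest 2 deciles of that ratio, 13 of 16 members had a promoter peak in both libraries, against 93.6% of all genes. In deciles 5 to 8, 4 of 18 members did (22.2%), against 81.9%. In deciles 3 to 4 it was 2 of 5, against 38.9%, and no member was in the lowest 2. The ratio was taken at the 5′ end alone, while a promoter peak may lie at any annotated start. Foxj3, 1 of these 2 with a ratio of 0.18, had its tallest promoter peak 2476 bp downstream of its 5′ end. Weighted to the members' own deciles, 81.3% of all genes had such a peak, and 48.7% of the members did. The 16 members without a peak had a median ratio of 0.638, above the 0.174 of all genes without one. Foxf2 and Foxd3, with ratios of 0.854 and 0.819, had the most CpG-rich promoters among them.

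**Figure D2:**
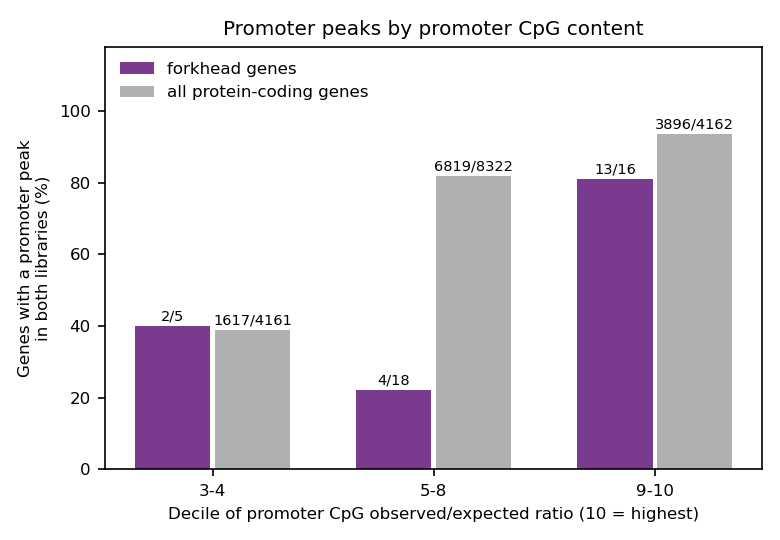
Share of genes with a promoter peak in both libraries (percent) for forkhead genes and all protein-coding genes, with counts above the bars. Genes are split by decile of the CpG ratio at the gene's 5′ end, while the peak may lie at any annotated start. The bars are far apart in deciles 5 to 8, at 22.2% and 81.9%, and stand at 40.0% and 38.9% in deciles 3 to 4 and at 81.2% and 93.6% in deciles 9 to 10.

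In and around the genes, the members held 134 regions with a peak in both libraries, out of 63895 on chromosomes 1 to 19. At least 1 lay in the gene or its 10 kb flanks at 28 members (71.8%), against 77.6% of all genes. The median was 2 regions over the members and 2 over all genes, and per 100 kb it was 4.29 and 4.7. Of these, 34 reached into the member's own promoter windows, and the others were placed by their middle: 58 in introns, 21 within 1 kb of the start of another gene, 17 in the flanks and 4 in exons. The 11 members with no region were Foxa1, Foxb1, Foxd1, Foxd3, Foxd4, Foxe1, Foxe3, Foxf2, Foxl2, Foxn4 and Foxr1.

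**Figure D3:**
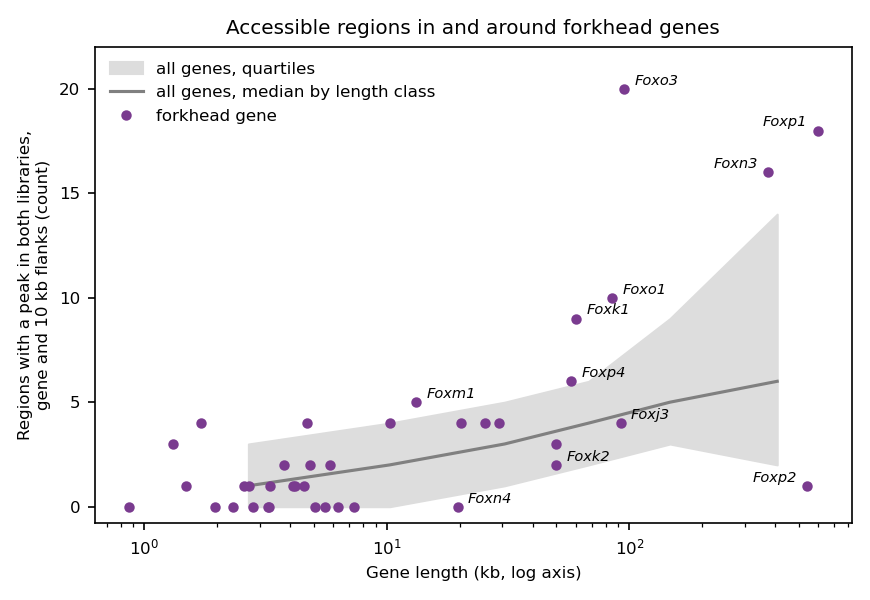
Number of regions with a peak in both libraries in each forkhead gene and its 10 kb flanks against gene length (kb, log axis), with the median and quartiles of all protein-coding genes by length class. Foxo3 with 20 regions and Foxp1 with 18 are the highest, and Foxp2, nearly as long as Foxp1, has 1.

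The widely expressed members held most of these regions, with a median of 6 a gene. Foxo3 had 20, Foxp1 18, Foxn3 16, Foxo1 10 and Foxk1 9, followed by Foxp4 with 6 and Foxm1 with 5. All genes of 50 to 100 kb had a median of 4 regions (quartiles 2 and 6), so Foxo3 at 94.9 kb, Foxo1 at 84.9 kb and Foxk1 at 60.5 kb were above the upper quartile. Members of like length differed in their count. Foxp1, at 597 kb, had 18 regions and the related Foxp2, at 541 kb, had 1, which lay in an intron 1841 bp from one of its internal starts with heights of 1.17 and 0.499. The quartiles of all genes of 300 to 700 kb were 2 and 14. Foxp2 was below and Foxp1 above that range.

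**Figure D4:**
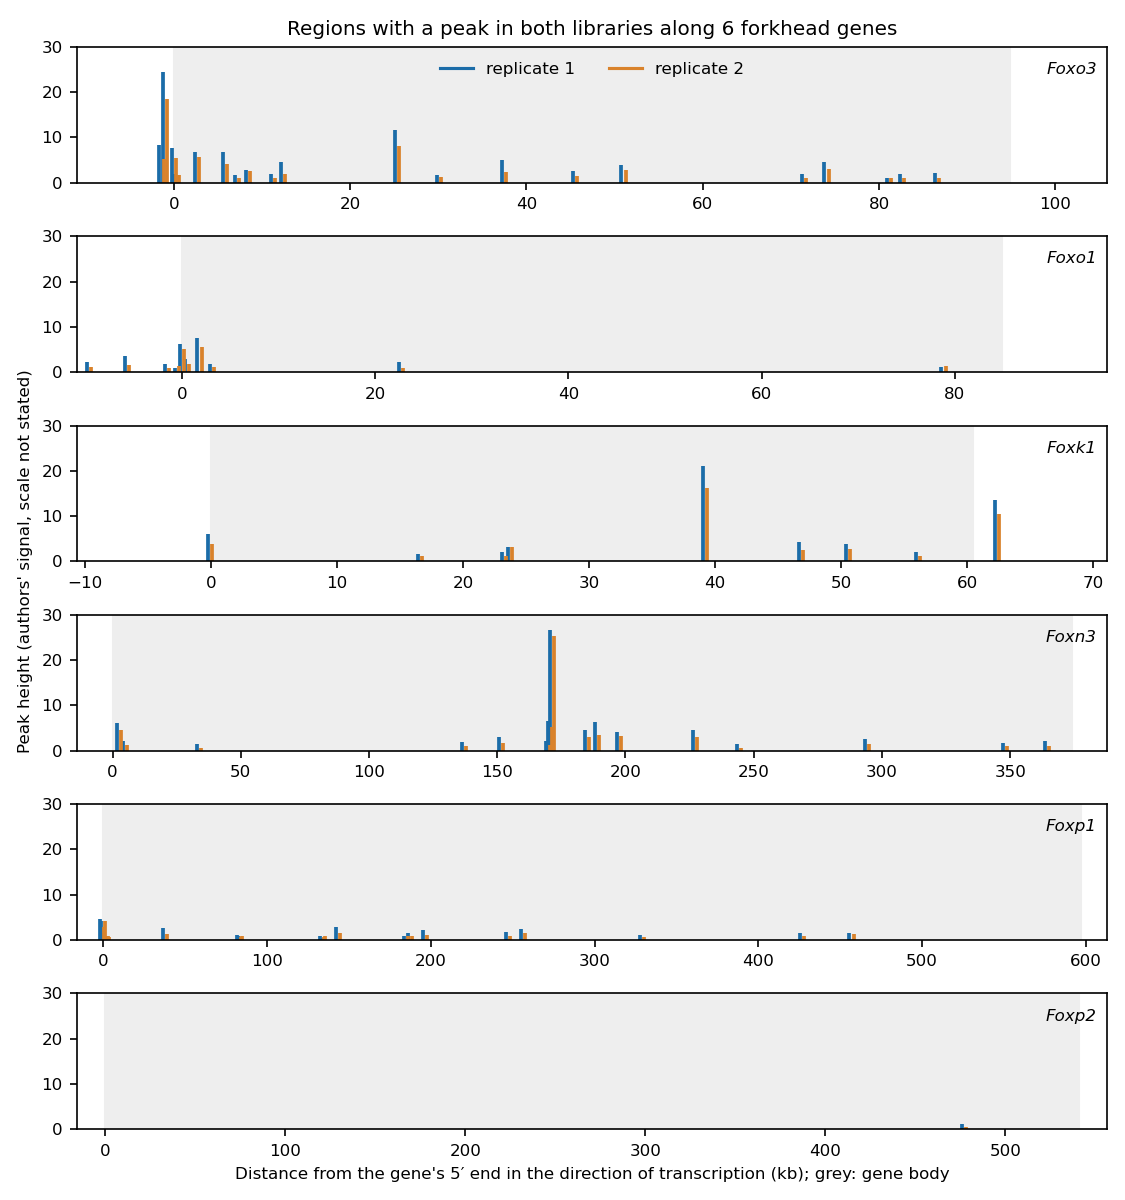
Height of each region with a peak in both libraries (authors' signal, scale not stated) along 6 forkhead genes, by distance from the gene's 5′ end in kb, with the bar of replicate 2 drawn just right of that of replicate 1 and the gene body in grey. Foxk1 has its tallest bar inside the gene, at 21.0 and 16.3, and Foxp2 has a single low region.

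Some regions inside genes were as tall as promoter peaks. The tallest was in an intron of Foxk1, with heights of 21.0 and 16.3, which is above the 5.97 and 3.72 of the gene's own promoter. It lay 39173 bp from the 5′ end of Foxk1 and 23274 bp from the nearest annotated start, that of Ap5z1, and held 5 matched footprints, shown in capitals in its sequence above. The tallest intron region of Foxo3 had heights of 11.6 and 8.12, was 25315 bp from the 5′ end and held 0 matched footprints. At Foxn1, a factor of thymus and hair with no promoter peak, 3 regions in introns had heights of up to 3.82 and 1.76.

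At the genes with most regions, the regions were spread along the introns. Of the 20 at Foxo3, 16 lay in introns, with heights from 1.03 to 11.6 in replicate 1 and from 0.937 to 8.12 in replicate 2, and 3 at its promoters. At Foxn3 12 of 16 lay in introns, with heights of up to 6.27 in replicate 1 and 4.5 in replicate 2. At Foxp1 9 of 18 did, none above 2.82 in replicate 1, and 6 lay at its own promoters. Foxo1 had its tallest region not at its start but 1804 bp downstream, with heights of 7.53 and 5.59 and 5 matched footprints, and the start of Gm20402 lay 705 bp from it.

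Among the shorter members with a promoter peak in both libraries, regions outside the promoter differed in height from gene to gene. Foxm1 had one with heights of 12.8 and 9.01 near the start of Tulp3, and Foxa3 had one with 11.1 and 8.12 near that of Irf2bp1. Foxc1 had a region 5253 bp upstream of its start with heights of 5.22 and 2.22, near those of its promoter in replicate 1 and lower in replicate 2. Foxs1 had a region of 2.79 and 2.43, more than its promoter's 1.18 and 0.886, at 7488 bp downstream of its start. Foxf1 had one of 2.51 and 1.24 at 8474 bp downstream. Foxj1 had 2 regions in introns, with heights of 1.29 and 1.16 in replicate 1 beside the 12.6 of its promoter peak. Foxo6 had 3 in introns, with heights of up to 2.65 and 1.75.

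Other members without a promoter peak had regions at some distance from their starts. Foxa2 had a region 1681 bp upstream of its start with heights of 1.75 and 0.917, and Foxl1 had one 2270 bp upstream with 2.3 and 2.38. Foxi2 had one 6698 bp upstream with 2.13 and 0.723, and Foxb2 had one 5055 bp downstream with 1.43 and 0.876. Foxq1, a factor of hair and gastric mucosa, had one within its exon, 2036 bp from the start, with 4.27 and 3.21. The 4 regions around Foxh1, with heights of up to 20.4 and 15.9, all lay within 1 kb of the starts of Kifc2, Cyhr1 or Ppp1r16a. The density of 18.4 regions per 100 kb at Foxh1 was the highest of the members, and none of those regions was at its own start.

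Some forkhead genes that lie near each other differed in their promoter peaks. Foxd2, with a promoter peak in both libraries, is 16.3 kb from Foxe3, which had none and no shared region. Foxf1, with a peak in both, is 39.8 kb from Foxl1, which had none. On chromosome 13, Foxq1 is 64.8 kb from Foxf2 and Foxf2 is 175 kb from Foxc1. Of these 3, only Foxc1 had a promoter peak, and Foxf2 between them had neither a promoter peak nor a shared region.

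Footprints followed the peaks. A footprint matched between the libraries lay in the promoter window of 21 members (53.8%), against 60.5% of all genes. These were the 19 with a promoter peak in both libraries together with Foxa1 and Foxd1, which had 1 each. Of all 12932 genes with a promoter peak in both libraries, 12369 had a matched promoter footprint. Footprints and peaks were made from the same alignment of each library, so the footprints are not independent of the peaks. The members' matched promoter footprints added up to 94, with the most at Foxn3 (10) and then Foxo1, Foxo3 and Foxp1 (8 each). Foxa2, Foxe1 and Foxl2 had promoter footprints that were not matched, and 15 members had none in either library. These last counts were not made over all genes. Over the genes and their flanks there were 262 matched footprints with a median width of 19 bp, the same as over all 124742 on these chromosomes. Foxo3 had 34, Foxn3 27, Foxk1 25, Foxo1 24 and Foxp1 19. Footprints carry no score in the deposited files.

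A sequence that forkhead proteins themselves bind, TGTTTAC, was searched on both strands. TGTTTAC was found in the 2001 bp around the 5′ end of 10 members (25.6%), against 20.7% of all genes. It was found in the middle 200 bp of 3 of the 134 regions (2.24%), against 2.94% of all regions. Over whole regions there were 5 matches, at 5 members, and all 5 are shown. Only these exact letters were counted, so other sequences that forkhead proteins bind may lie in these regions. The alternative TATTTAC was found in the middle 200 bp of 1 of the 134 regions (0.746%), against 1.5% of all regions. Capitals mark the motif, and each line is written in the direction of the motif.
Foxk1, chr5:142440535-142440581, plus strand: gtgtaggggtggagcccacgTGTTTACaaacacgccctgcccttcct
Foxn3, chr12:99378512-99378558, plus strand: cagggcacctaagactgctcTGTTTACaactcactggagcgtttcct
Foxo1, chr3:52268044-52268090, minus strand: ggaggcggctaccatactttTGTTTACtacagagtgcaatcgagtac
Foxo3, chr10:42251444-42251490, minus strand: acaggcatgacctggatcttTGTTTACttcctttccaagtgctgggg
Foxp1, chr6:99523004-99523050, minus strand: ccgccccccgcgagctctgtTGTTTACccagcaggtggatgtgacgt
The Foxk1 and Foxo3 matches lie in the tall intron regions described above, those of Foxo1 and Foxp1 in promoter regions, and that of Foxn3 in an intron region with heights of 4.54 and 2.93. None of the 5 touched a footprint of either library. Over the whole genes and their 10 kb flanks, 0 members had TGTTTAC wholly inside a matched footprint, and 0.135% of all genes (28 genes) did. A match is only a run of letters, and nothing about binding is drawn from it or from the lack of a footprint there.

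The GC box GGGGCGGGG, which SP and KLF proteins bind, was found in the middle 200 bp of 17 of 134 regions (12.7%), against 5.98% of all regions. At the members' own promoter regions it was 12 of 34 (35.3%), against 14.1% of the 22465 regions whose middle lay within 1 kb of any start. Whole promoter regions of 10 members held 15 GC boxes, and 9 of these, at 8 members, lay inside a footprint of both libraries. The count of GC boxes inside footprints was not made over all regions, so nothing particular to the members is read from it. Of those 9, 5 are shown as examples, with the motif in capitals and written in its own direction.
Foxa3, chr7:19024331-19024369, plus strand: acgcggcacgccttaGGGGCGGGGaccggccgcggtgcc
Foxn2, chr17:88440613-88440651, plus strand: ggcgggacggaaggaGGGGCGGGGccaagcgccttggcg
Foxo6, chr4:120287930-120287968, minus strand: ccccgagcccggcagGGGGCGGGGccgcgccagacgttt
Foxo6, chr4:120288094-120288132, plus strand: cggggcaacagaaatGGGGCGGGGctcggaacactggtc
Foxp1, chr6:99523029-99523067, plus strand: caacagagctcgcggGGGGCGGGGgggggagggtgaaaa
The others at promoters were at Foxc1, Foxj1, Foxk1 and Foxo3. The members' promoters were richer in CpG than those of all genes, as given above, and the part of base composition in the GC-box share was not tested.

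The core of the CTCF motif, written CCA, AG and GGC with 2 free bases between each, was in 5.97% of the members' regions and in 8.02% of all regions, the E-box CACGTG in 5.22% and 6.65%, and the HNF4 motif CAAAGTCCA in 0.746% and 1.39%. The X-box, GTTGCC and GGCAAC with 1 free base between, a palindrome bound by RFX proteins, was in 1 of the 134 regions of the members (0.746%) and in 17 of all 63895 regions (0.0266%). That member was Foxn3, and the match lies in the second block of capitals of its sequence shown at the start, inside a footprint of both libraries. The X-box was added after the data had been seen and the members' share rests on this 1 region, so no enrichment is read from it.

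Genes known to act with forkhead proteins mostly had promoter peaks in both libraries. Of 12 genes upstream of the FOXO proteins, 12 had a promoter peak in both libraries. The tallest was at Ywhaz, a 14-3-3 protein that holds FOXO in the cytoplasm, at 22.6 and 18.2. Pik3ca, the catalytic subunit of PI3-kinase, had 17.2 and 15.0. Of 12 FOXO targets, 11 had one, led by Txnip at 29.2 and 28.3, Sod2 at 21.0 and 15.6 and Gadd45a at 17.9 and 16.6, and the muscle ubiquitin ligase gene Trim63 had none. All 8 targets of FOXM1 had one, among them Cenpf at 18.4 and 15.9, Cdk1 at 13.8 and 10.3 and Birc5 at 11.7 and 7.73. All genes had one in 62.2% of cases, as given above, and those in CpG deciles 5 to 8 and 9 to 10 in 81.9% and 93.6%. No share over genes like the listed ones was made. These lists, and that of FOXJ1 below, were chosen with earlier results of these data known. No link between the forkhead genes and the listed genes is read from the counts.

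Of 8 listed targets and partners of FOXJ1, 7 were found by symbol among the protein-coding genes of chromosomes 1 to 19. Dnai1 was not matched by symbol and was not measured. Of the 7, 5 had a promoter peak in both libraries, with the tallest at Rfx2, a factor of ciliary genes, at 18.9 and 15.2. Rfx3 had 8.57 and 6.78, and Cfap126 had 9.21 and 6.01. Spag6l, of the axoneme's central pair, had a peak of 1.52 in replicate 1 alone, and Dnah5, a heavy chain of the outer dynein arm, had none in either library and 0 shared regions in its locus. Tekt1 and Ccdc39, of ciliary structure, had peaks of 3.48 and 3.13 in replicate 1 and of 1.2 and 1.44 in replicate 2, below those of Foxj1 itself at 12.6 and 7.34.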

How the data were processed

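DNase-seq of kidney tissue gave 2 libraries of 1 group. Per the deposited description, the authors made every file separately for each library from a filtered alignment to mm10. Names of the aligner and peak caller were not given in the sources used here. In the deposited peak files each peak has a signal value, called its height, on a scale that is not stated. The deposited false discovery rate files hold q-value-like numbers, the false discovery rate of the cut rate in each interval, and list only intervals below 0.05. The deposited footprint files give the constant 0.01 in every row as their other column, so only the intervals were used.

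The stricter peak set of each library, the one with fewer peaks, was used, and the wider one as an alternative. Starts and genes came from GENCODE release M21, and sequences and CpG ratios from the RefSeq copy of the mm10 assembly (GRCm38). A region was shared when peaks of both libraries had at least 1 base in common, and footprints were matched over at least 50% of the shorter. A region that overlapped a start window of the member was assigned to its promoter, and other regions were assigned by their middle. Motifs were searched on both strands in the middle 200 bp of shared regions. The X-box, GC box, CTCF, E-box and HNF4 motifs were added after the data had been seen.

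The members and the lists were chosen with earlier results of these data known, and the role of each member was assigned by hand from general knowledge. With 1 group of 2 libraries, no test was made. The main counts stand beside the same count over all protein-coding genes on chromosomes 1 to 19, and some further counts were made for the members only. Members described with values were those with the 12 highest promoter peaks by mean percentile, those with a promoter peak in 1 library or neither, and the 8 with most shared regions. Some genes are counted but not reported here by name. Further members and single regions were named after their values were seen. Alternatives were windows of 500 and 2500 bp, flanks of 50 kb or none, other overlap rules, the wider set, the stronger 50% of peaks, other starts, and each library left out. The overlap steps were tested on simulated intervals. Python 3.11.15, pandas 2.3.3, numpy 2.4.6, pysam 0.24.0 and matplotlib 3.10.9 were used.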

Additional observations from a re-analysis of the deposited data

How the results depend on the processing

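The count of 19 members with a promoter peak in both libraries moved to 17 with a window of 500 bp (all genes, 60.5%), where Foxa3 and Foxo6 dropped out, and to 24 with 2500 bp (65.3%), where Foxa2, Foxh1, Foxl1, Foxp2 and Foxq1 came in. It was 16 with the stronger 50% of peaks (54.3%), without Foxf1, Foxi3 and Foxs1, and 19 with starts of protein-coding transcripts (60.7%). With either library left out it ranged from 19 (62.3%) to 23 (68.4%). The count of 21 members with a matched promoter footprint was 21 with an overlap of 1 base (all genes, 61.3%), 18 with a window of 500 bp (58.6%), 2 when the intervals had to be identical (10.7%), and 21 (64.0%) to 24 (69.1%) with either library left out. TGTTTAC lay inside a matched footprint at 0 members, and overlapped one at least in part at 1 (all genes, 0.913%), Foxo3, at a match that is not among the 5 shown. With either library left out, TGTTTAC lay wholly inside a footprint of the remaining library at 0 members. Over all genes that share was 0.12% without replicate 1 and 0.317% without replicate 2. The median of 2 shared regions per member was 0 with no flanks (all genes, 1), 6 with flanks of 50 kb (all genes, 7) and 1 over 1 kb from every start, and with either library left out it ranged from 2 to 4. Replicate 1 had more peaks than replicate 2, the 4 members with a promoter peak in 1 library had it in replicate 1, and the part of depth was not tested since read totals were not given in the sources used here. A gene without a peak may be open below these thresholds or in few cells.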
